A study of Mus musculus with 12 samples.

Results

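The skin of LL37 mice given rapamycin (RAPA) was compared with the skin of LL37 mice not given it, across the genes of a read count table. The groups compared held 6 of the 12 libraries of the series. Of these, 3 were labelled as LL37-induced rosacea-like mice (LL37) and 3 as such mice treated with RAPA (LL37+RAPA). The 6 libraries were chosen by their labels and not by any measured value. Each library was 1 sample of BALB/c mouse skin, and per the study's methods the mice of this model were 8 weeks old and female. LL37, a human cathelicidin peptide, was injected into the skin of the shaved back over 2 days, and control mice received the vehicle. RAPA was given into the peritoneum at 4 mg/kg per day in the mouse work of which these samples are part, and the route and dose of the sequenced mice are not named separately. Both groups compared here carried the LL37 injections. The other 6 libraries, 3 of control mice and 3 of control mice given RAPA (control+RAPA), give the background. They also entered the same fit, so the filter, the scaling and the spread behind each p-value came from all 12 libraries. The question was what RAPA lowers and raises in inflamed skin.

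RAPA binds FKBP12 and, with it, inhibits mTOR complex 1 (mTORC1), a kinase complex that joins growth factor and nutrient signals to protein synthesis, ribosome production, lipid synthesis and glycolysis. It acts on cells of the skin and of the blood alike when given to the whole animal. Cathelicidin is an antimicrobial peptide of neutrophils and keratinocytes and a mediator of rosacea, an inflammatory disease of facial skin. LL37 injection is a short-term model of that inflammation and not the disease itself.

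Levels are given in CPM, counts per 1000000 counts of the library, scaled between libraries by the TMM method. Effects are log2 fold changes of LL37+RAPA over LL37, each ± its standard error with 3 libraries a group, and positive values are higher with RAPA. The adjusted p-values come from edgeR's quasi-likelihood test with Benjamini-Hochberg adjustment over the 17993 genes that passed a filter on low counts. A differentially expressed gene (DEG) had an adjusted p-value under 0.05 and a change of more than 1 on the log2 scale. Where a gene list is described, the genes that had an adjusted p-value under 0.05 are said to have passed the test, whatever the size of their change.

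The 6 libraries held between 15734559 and 23271784 counts. LL37 replicate 3 stood apart from the other LL37 libraries. On the first principal component of the 6 libraries, which held 70.2% of the variance, it scored 3.08, the other LL37 libraries 84.3 and 75.0, and the RAPA libraries between -67.2 and -43.5. Its root mean square log2 distance to LL37 replicates 1 and 2 was 0.781 and 0.793, and to the RAPA libraries 0.656 to 0.738. Keratin genes of the epidermis marked every library as skin, Krt14 (keratin 14 of the basal layer) standing at 10700, 9263 and 9551 CPM in LL37 skin and 5001, 5502 and 5769 with RAPA. The summed level of the skeletal muscle list, in contrast, differed widely. It took 0.0526% to 0.190% of the counts in LL37 skin, 0.534% to 1.10% in LL37+RAPA skin and 5.25% to 8.67% in the control libraries with and without RAPA. Bulk libraries cannot tell fewer cells of a type from less RNA per cell, and this holds for each result here.

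Of the genes tested, 1044 (5.80%) were DEGs raised by RAPA and 779 (4.33%) were DEGs lowered by it. With no limit on the size of the change, 2239 genes (12.4%) passed the test as raised and 2120 (11.8%) as lowered. The order of the last pair depended on the scaling, with 2177 raised and 2231 lowered under DESeq2's size factors, 2160 and 2202 with the muscle list removed, and 2543 and 2623 by DESeq2. All RAPA libraries lay above all LL37 libraries in 3726 genes (20.7%) and below them in 3160 (17.6%). The median change over all genes tested was 0.00, that of the raised DEGs 1.62 and that of the lowered DEGs -1.66 on the log2 scale. Of the raised DEGs 140 passed 3 on that scale, and of the lowered DEGs 117.

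Single libraries carried part of these counts. Without LL37 replicate 3 there were 1634 raised and 1093 lowered DEGs. Without LL37 replicate 1 there were 657 and 447, and without LL37+RAPA replicate 1 there were 713 and 487. A fit of the 6 libraries alone called 649 raised and 588 lowered DEGs.

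**Figure D1:**
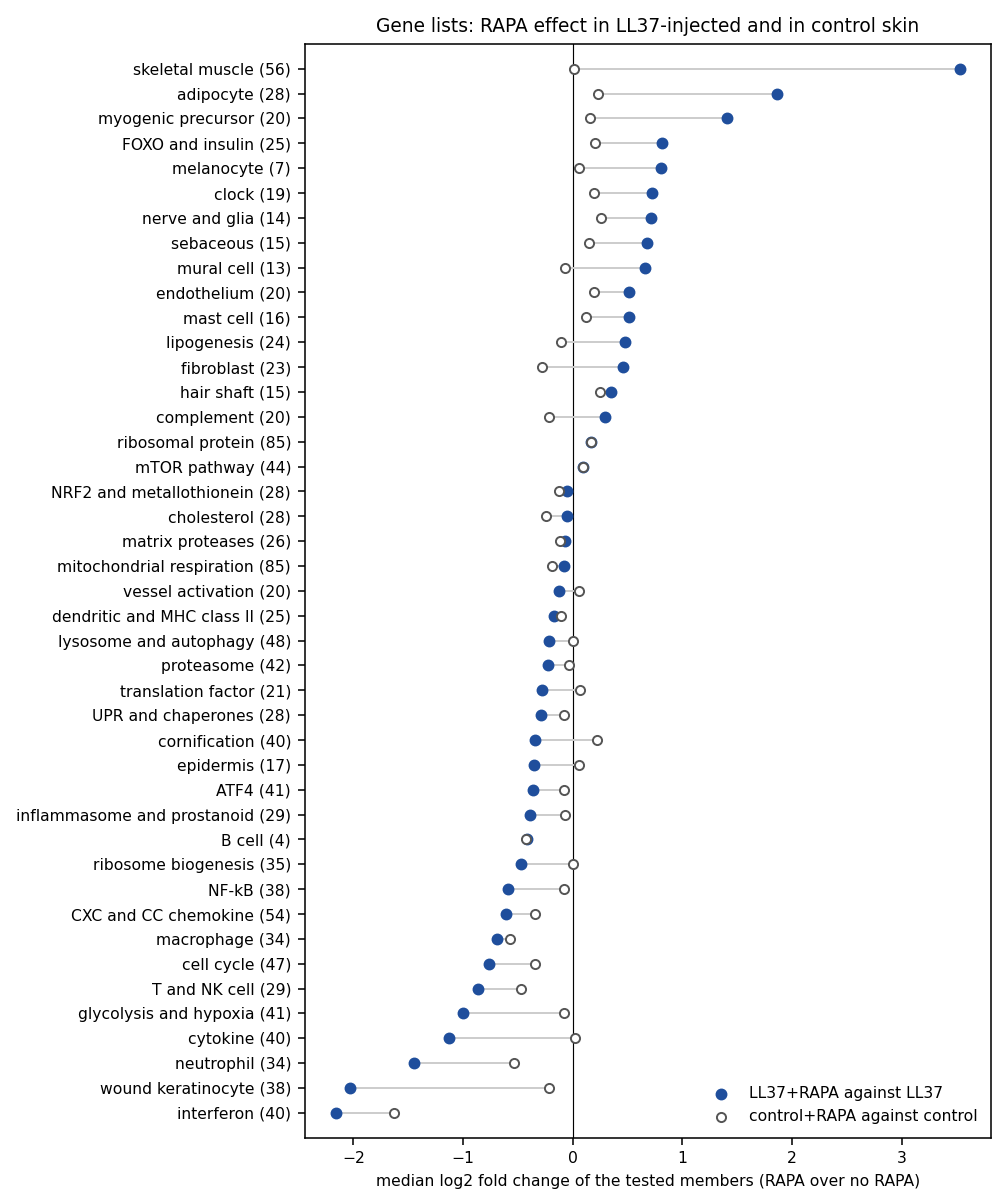
Median log2 fold change of the tested members of each of 43 gene lists (number tested in brackets), in LL37-injected skin (filled, LL37+RAPA over LL37) and in control skin (open, control+RAPA over control). The filled points run from -2.16 for the interferon list to 3.53 for the skeletal muscle list, while the open points lie between -1.63 and 0.26.

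Among the genes lowered by RAPA, the interferon-induced genes stood at the far end of the lists. These genes are switched on by type I and type II interferon and make antiviral proteins and chemokines. Of 41 listed genes, 40 passed the filter on low counts and 37 were lowered DEGs, with a median change of -2.16, against 0.00 over all genes tested. None was a raised DEG. Without LL37 replicate 3 there were 36 lowered DEGs, and over the 6 fits that each left out 1 library there were 29 to 38.

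Many interferon-induced genes carry a GAAANNGAA element near their start. The RefSeq promoter windows (GRCm38.p6, 250 bases before to 50 after a start) covered 12458 of the tested genes by symbol. The element stood on either strand in 21 of the 31 listed genes with a window (67.7%), in 19.6% of the lowered DEGs, in 8.10% of the raised DEGs and in 8.84% of all tested genes. A match is a description of letters and not a binding site. The 4 stretches are shown because Rsad2, Cxcl10 and Ifit1bl1 were among the most lowered of all genes and Ifih1 had the smallest p-value of the list. Capitals mark the element, in the given or the reverse complement form, in the 100 bases around it on the strand of the gene.
Rsad2: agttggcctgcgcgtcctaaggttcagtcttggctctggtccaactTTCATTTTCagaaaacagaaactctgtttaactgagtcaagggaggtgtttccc
Cxcl10: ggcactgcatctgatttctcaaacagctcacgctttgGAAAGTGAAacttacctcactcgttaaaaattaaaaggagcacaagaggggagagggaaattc
Ifih1: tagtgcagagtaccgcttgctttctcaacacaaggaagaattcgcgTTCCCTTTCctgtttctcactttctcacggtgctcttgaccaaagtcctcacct
Ifit1bl1: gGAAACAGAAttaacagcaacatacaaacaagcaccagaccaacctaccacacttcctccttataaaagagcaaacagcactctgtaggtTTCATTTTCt
These stretches lie at chr12:26456518-26456617 for Rsad2, chr5:92349040-92349139 for Cxcl10, chr2:62646314-62646413 for Ifih1 and chr19:34602062-34602161 for Ifit1bl1, each read from the minus strand. The stretch of Ifit1bl1 held 2 matches and the others 1.

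Rsad2 (ENSMUSG00000020641, chr12:26442746-26456452) encodes viperin, an antiviral enzyme. It stood at 331, 51.0 and 49.8 CPM in LL37 skin and at 4.41, 1.92 and 5.72 with RAPA. The groups did not overlap, and LL37 replicate 1 was far above the other LL37 libraries. The change was -5.17 ± 0.97, adjusted p = 0.0045, and -3.65 without LL37 replicate 1. Control skin held 7.66, 2.77 and 29.1 CPM and control skin with RAPA 2.87, 2.37 and 2.13.

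Cxcl10 encodes a chemokine for activated T cells. It stood at 46.6, 5.39 and 6.88 CPM in LL37 skin and 0.522, 0.45 and 0.586 with RAPA, again with LL37 replicate 1 the highest and no overlap. Its change was -5.23 ± 1.08, adjusted p = 0.00679, and -3.55 without LL37 replicate 1. Irf9, a transcription factor of the type I interferon response, and Ifih1, an RNA sensor known as MDA5, changed by less. Irf9 stood at 136, 105 and 90.6 CPM against 49.2, 45.2 and 61.5 with RAPA, a change of -1.08 ± 0.15, adjusted p = 0.00166, and its exons overlap Rnf31. Ifih1 stood at 80.7, 43.0 and 41.4 CPM against 17.7, 14.7 and 19.7 with RAPA, a change of -1.66 ± 0.23, adjusted p = 0.00156. In both genes every RAPA library was below every LL37 library and close to control skin, which held 55.1, 48.9 and 56.7 CPM of Irf9 and 21, 18.3 and 22.9 of Ifih1. Ifit1bl1, an IFIT family gene that is not on the list, held at most 3 counts in each RAPA library and stood at 13.1, 1.47 and 4.99 CPM in LL37 skin. It was at least 48.8-fold lower with RAPA, against a floor of 3 counts per library. Among the proteasome genes, the smallest p-values were those of the interferon-inducible subunits, of which Psmb9 stood at 79.7, 78.5 and 69.5 CPM in LL37 skin and 41.0, 41.7 and 42.6 with RAPA, a change of -0.86 ± 0.11, adjusted p = 0.00129.

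The interferon genes were also lower with RAPA in skin without LL37. Their median change in control skin was -1.63, with 39 of 40 tested members below 0 and 35 at an unadjusted p-value under 0.05, where 4.57% of all genes tested were lower at that level and 4.08% higher. By edgeR 0 members reached an adjusted p-value under 0.05 in control skin, and by DESeq2 9 did. The difference between the RAPA effects in the 2 kinds of skin passed edgeR's test for 0 of the 40, with 12 at an unadjusted p-value under 0.05, the smallest adjusted p being 0.0819, that of Ifih1. By DESeq2 it passed for 3, and 3 others were given no adjusted p. Across all genes that difference passed the test for 590 (3.28%).

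**Figure D2:**
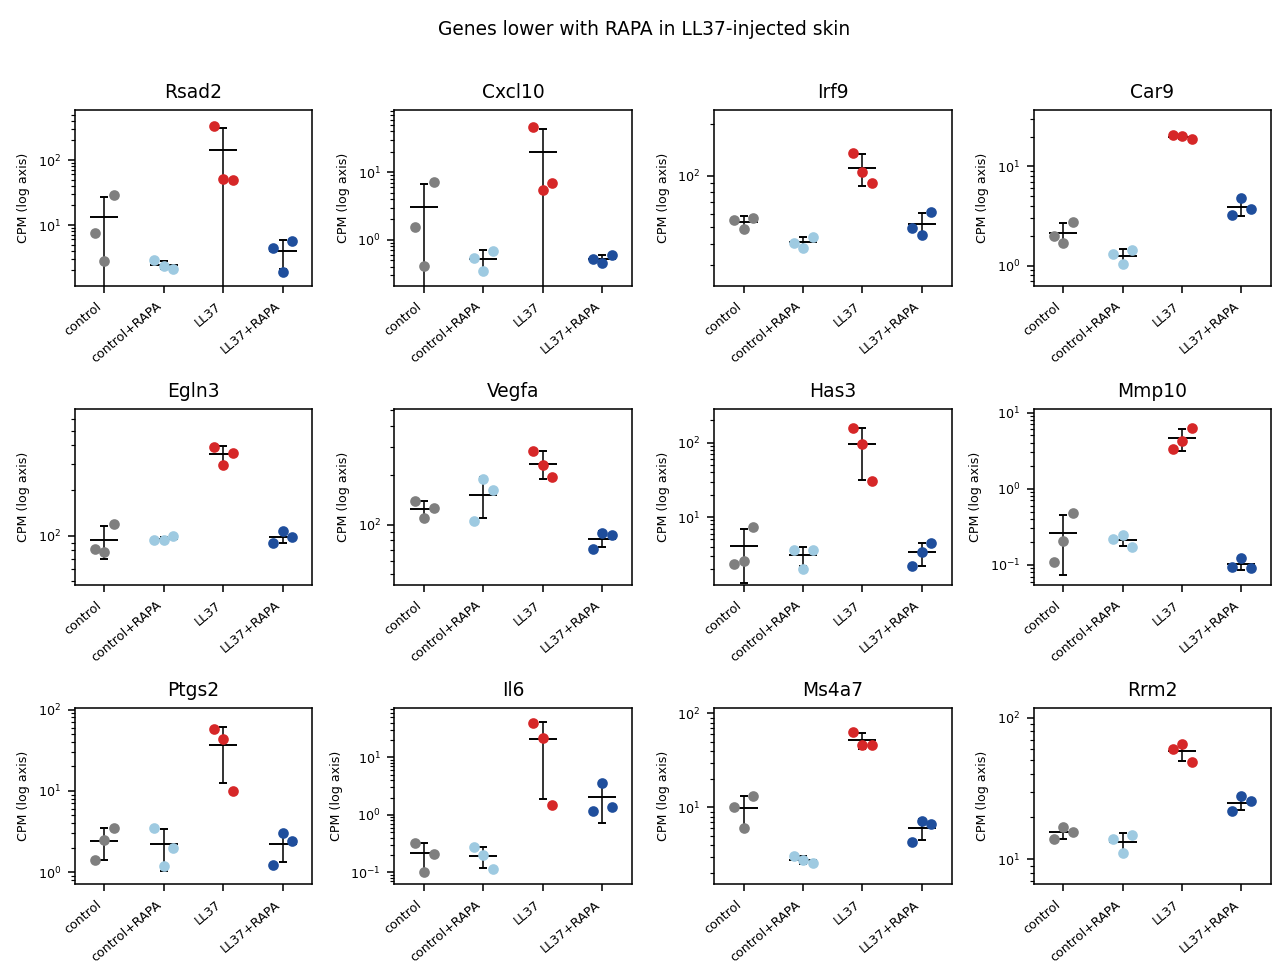
CPM on a log axis of 12 genes lower with RAPA, 1 point a library, with group means and SD as bars (bars that pass the axis end there), in control, control+RAPA, LL37 and LL37+RAPA skin. In each panel except Il6, where LL37 replicate 3 stood at 1.51 CPM, every LL37+RAPA library lies below every LL37 library.

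Genes of glycolysis and of the hypoxia response fell together. HIF1 switches these genes on at low oxygen, and mTORC1 is known to raise its translation. Of 41 genes listed and tested, 21 were lowered DEGs and 1 was raised, and 33 passed the test as lowered and 2 as raised. The median was -1.0. The count of lowered DEGs was 23 without LL37 replicate 3 and 15 to 23 over the fits without 1 library. The core letters of the hypoxia response element, ACGTG on either strand, stood in 25 of 36 listed genes with a promoter window (69.4%), in 21% of the lowered DEGs, 22.9% of the raised DEGs and 27.4% of all tested genes. The letters are part of CACGTG too, so an E-box also counts as a match. Stretches of Egln3 and of Pgk1, a glycolytic kinase that changed by -1.32, adjusted p = 0.00101, are shown with the core in capitals, since they had the smallest p-values of the list among members with a match before the gene as GENCODE gives it.
Egln3: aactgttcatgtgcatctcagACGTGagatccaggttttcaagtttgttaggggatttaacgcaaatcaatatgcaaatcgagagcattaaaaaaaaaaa
Pgk1: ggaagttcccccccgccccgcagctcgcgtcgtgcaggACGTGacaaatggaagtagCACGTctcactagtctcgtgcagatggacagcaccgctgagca
The stretch of Egln3 lies at chr12:54204025-54204124 on the minus strand and that of Pgk1 at chrX:106186912-106187011 on the plus strand. The core began 229 bases before the start of Egln3, and it stood at 2 places in the stretch of Pgk1.

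Car9 (ENSMUSG00000028463, chr4:43506966-43513729) encodes carbonic anhydrase 9, a surface enzyme that handles acid. It stood at 20.8, 20.3 and 18.9 CPM in LL37 skin and 3.27, 4.79 and 3.74 with RAPA. The LL37 libraries were close together, LL37 replicate 3 included, and did not overlap the RAPA libraries. The change was -2.34 ± 0.20, adjusted p = 0.000332, and control skin held 2.0, 1.69 and 2.74 CPM. Egln3 (ENSMUSG00000035105, chr12:54178981-54203860), the oxygen sensor PHD3, stood at 388, 297 and 357 CPM and fell to 89.9, 108 and 97.3, a change of -1.82 ± 0.16, adjusted p = 0.000332. With RAPA it lay within the range of control skin, 81.2, 78.2 and 119.7 CPM. Ero1l, an oxidase that forms disulfide bonds in the endoplasmic reticulum, stood at 126, 104 and 77.8 CPM against 21.3, 30.1 and 27.6, a change of -1.96 ± 0.18, adjusted p = 0.000525.

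Vegfa, the main growth factor of blood vessels, was lower with RAPA than in any other group. It stood at 284, 231 and 194 CPM in LL37 skin, 71.1, 88.6 and 86.7 with RAPA and 139, 109 and 126 in control skin. The RAPA libraries lay below both. The change was -1.52 ± 0.21, adjusted p = 0.00152. In control skin RAPA gave 106, 190.1 and 162 CPM, a change of 0.29 ± 0.20, unadjusted p = 0.178, and the effects in the 2 kinds of skin differed by -1.81 ± 0.29, adjusted p = 0.0198. Such differences passed the test for 15 of the 41 glycolysis and hypoxia genes, among them Car9, Egln3 and Ero1l. These calls depended on single libraries. Over all genes such differences numbered 590, with 3145 without LL37 replicate 3, 108 without LL37 replicate 1 and 2 without LL37+RAPA replicate 1. At most 2 of the genes here could therefore pass without LL37+RAPA replicate 1.

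Genes that keratinocytes switch on at wounds fell with RAPA. Of 42 listed, 38 passed the filter, 24 were lowered DEGs and none was a raised DEG, and the median was -2.03. The count was 26 without LL37 replicate 3, and 13 to 15 without LL37 replicate 1, LL37+RAPA replicate 1 or LL37+RAPA replicate 2. Has3 (ENSMUSG00000031910, chr8:106870242-106884566), a hyaluronan synthase, stood at 159, 96.6 and 30.8 CPM in LL37 skin and 2.18, 3.36 and 4.51 with RAPA. LL37 replicate 3 was lowest of its group yet above every RAPA library. The change was -4.83 ± 0.62, adjusted p = 0.00133. Sprr2a2, a precursor of the cornified envelope, stood at 20.9, 11.7 and 10.5 CPM and 0.0949, 0.164 and 0.18 with RAPA, a change of -6.54 ± 0.45, adjusted p = 0.000332. It overlaps and resembles Sprr2a1, so its reads may be split between the pair. Il1f9, which encodes the epidermal cytokine IL-36 gamma, stood at 132, 112 and 87.8 CPM against 34.7, 41.0 and 47.2 with RAPA, a change of -1.43 ± 0.18, adjusted p = 0.00124. The RAPA libraries were near control skin, 44.4, 41.5 and 56.5 CPM.

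Genes of resting and maturing epidermis were lower in part. Of 17 epidermis genes, 5 passed the test as lowered and 1 as raised, and 0 were DEGs, with a median of -0.35. Without LL37 replicate 3 there were 2 lowered DEGs and 1 raised, and the lowered genes past the test numbered 3 to 7 over the fits without 1 library. Krt14, with the values above, changed by -0.86 ± 0.19, adjusted p = 0.00852. Of 40 cornification genes, 8 were lowered DEGs and 0 raised, 13 passed the test as lowered, and the median was -0.34. The lowered DEGs numbered 8 without LL37 replicate 2 and 4 or 5 without any 1 of the others. Hornerin (Hrnr), a filaggrin relative, stood at 455, 297 and 428 CPM and 189, 147 and 137 with RAPA, with 178, 255 and 260.5 in control skin, a change of -1.32 ± 0.19, adjusted p = 0.00168. Of 26 matrix protease and inhibitor genes tested, 8 were lowered DEGs and 4 raised. The lowered ones numbered 9 without LL37 replicate 3 and 2 to 4 without any 1 of the others. Mmp10 (ENSMUSG00000047562, chr9:7502352-7510240), stromelysin 2 of migrating keratinocytes, stood at 3.32, 4.23 and 6.22 CPM in LL37 skin and held at most 3 counts in each RAPA library, at least 34.4-fold lower. Timp3, an inhibitor of such proteases, moved the other way, from 75.5, 55.5 and 92.3 CPM to 209, 156 and 206, a change of 1.35 ± 0.23, adjusted p = 0.00287.

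Genes of inflammation fell, with a spread among the LL37 libraries that set how firmly each could be called. Of 40 cytokine genes tested, 16 were lowered DEGs and 0 raised, with a median of -1.13, and of 54 chemokine genes 17 were lowered and 3 raised, with a median of -0.61. Of 38 genes of NF-kB signalling 10 were lowered and 0 raised, and the median was -0.59. Without LL37 replicate 3 the lowered DEGs of the 3 lists numbered 25, 20 and 15. Without LL37 replicate 1 they numbered 8, 9 and 4, and without LL37+RAPA replicate 1 they numbered 9, 8 and 4. Each refit repeated the filter over all listed genes. Among the genes tested above, the counts were 23, 19 and 15 without LL37 replicate 3 and 7, 9 and 4 without LL37 replicate 1.

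Il24, a cytokine of wounded epidermis, stood at 9.53, 0.981 and 10.6 CPM in LL37 skin and held at most 3 counts in each RAPA library, at least 52.6-fold lower. Inhba, the activin A subunit, stood at 36.0, 29.8 and 15.8 CPM and 3.56, 5.57 and 3.97 with RAPA, a change of -2.63 ± 0.38, adjusted p = 0.00175. LL37 replicate 2 was the lowest for Il24 and replicate 3 for Inhba, and neither gene overlapped between the groups.

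Il6, a fever and acute phase cytokine, stood at 40.5, 22.1 and 1.51 CPM in LL37 skin and 1.19, 3.56 and 1.35 with RAPA. LL37 replicate 3 lay among the RAPA libraries. The change was -3.38 ± 0.84, adjusted p = 0.0151, and its call was lost without LL37 replicate 1, LL37+RAPA replicate 1 or LL37+RAPA replicate 3 and in the fit of the 6 libraries alone. Tnf, tumour necrosis factor, stood at 18.9, 16.2 and 5.51 CPM against 2.09, 3.03 and 3.52 with RAPA, a change of -2.23 ± 0.55, adjusted p = 0.0151, and its call was lost without LL37 replicate 1 or LL37+RAPA replicate 1. Ptgs2, the inducible cyclooxygenase COX-2, stood at 58.1, 43.3 and 9.99 CPM and 1.23, 3.03 and 2.43 with RAPA without overlap, a change of -4.04 ± 0.63, adjusted p = 0.0021. The RAPA libraries had the level of control skin, 1.4, 2.46 and 3.48 CPM. Nos2, the inducible nitric oxide synthase, stood at 74.7, 19.4 and 8.2 CPM against 2.8, 3.81 and 3.47 with RAPA, a change of -3.34 ± 0.62, adjusted p = 0.00432, and -2.03 without LL37 replicate 1, its highest library.

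The receptor that the study links to LL37 fell too. Tlr2, a receptor for bacterial lipoproteins, stood at 79.9, 61.9 and 17.9 CPM in LL37 skin and 6.64, 16.9 and 11.2 with RAPA, and LL37 replicate 3 was the only LL37 library near the RAPA range. The change was -2.20 ± 0.50, adjusted p = 0.0101. Its partner Tlr1 stood at 43.5, 60.2 and 20.7 CPM against 5.36, 12.4 and 10.1 with RAPA, a change of -2.16 ± 0.41, adjusted p = 0.00482. The adaptor Myd88 stood at 140.3, 129.6 and 62.1 CPM against 35.7, 41.5 and 51.6 with RAPA, a change of -1.36 ± 0.25, adjusted p = 0.00397. Camp, which encodes mouse cathelicidin, was at the limit of detection, with 0.762, 0.551 and 0 CPM in LL37 skin and 0.285, 0.0409 and 0.0451 with RAPA, and its change of -1.78 ± 1.16 had an adjusted p of 0.286. Klk5, the protease that processes cathelicidin, stood at 71.7, 36.8 and 91.6 CPM against 62.8, 53.2 and 56.4 with RAPA, a change of -0.22 ± 0.25, adjusted p = 0.561, and 0.08 without LL37 replicate 3. Mmp9, a gelatinase of neutrophils and other cells, stood at 89.2, 200.3 and 34.7 CPM against 69.9, 162 and 90.9 with RAPA, a change of -0.01 ± 0.50, adjusted p = 0.996. The spread within its groups was wider than any difference between them.

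For the neutrophil genes the LL37 libraries differed among themselves. The summed level of the 38 listed genes was 5720, 5730 and 1360 CPM in LL37 skin and 652, 1340 and 1220 with RAPA, so LL37 replicate 3 lay at the level of the RAPA libraries. Of 34 tested genes, 16 were lowered DEGs and 1 was raised. The libraries of 6 of the 34 did not overlap in the lowered direction, as was so for 17.6% of all genes tested. There were 25 lowered DEGs without LL37 replicate 3, 2 without LL37 replicate 1, 5 without LL37 replicate 2, and 2 to 6 without any 1 of the RAPA libraries. Each refit repeated the filter over all listed genes, and 23 of the 25 were among the 34. Acod1, which makes itaconate in activated myeloid cells, stood at 317, 204 and 8.81 CPM in LL37 skin and 0.332, 2.21 and 1.89 with RAPA, a change of -6.87 ± 1.51, adjusted p = 0.00875. The raised gene was Prtn3, proteinase 3 of neutrophil granules, at 1.25, 0.797 and 1.7 CPM against 3.56, 6.39 and 5.86 with RAPA, a change of 2.06 ± 0.44, adjusted p = 0.00809. Hdc, histidine decarboxylase, is on both the neutrophil and the mast cell list and counts as a DEG in each. It stood at 279.9, 265 and 17.9 CPM in LL37 skin and 9.2, 20.8 and 21.6 with RAPA, a change of -3.44 ± 0.80, adjusted p = 0.0112. The groups overlapped, and its call was lost without LL37+RAPA replicate 1 and in the fit of the 6 libraries alone. The mast cell receptor gene Mrgprb2 moved the other way, from 1.14, 0.735 and 3.91 to 8.82, 9.01 and 9.51 CPM, a change of 2.20 ± 0.45, adjusted p = 0.00643, and these were the only DEGs among 16 mast cell genes tested. Among all genes tested 5.80% were raised and 4.33% lowered DEGs.

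Some macrophage genes fell while the summed level of the list overlapped between the groups. Of 34 tested, 8 were lowered DEGs and 2 raised, 5 and 1 without LL37+RAPA replicate 1, with a median of -0.69, and the summed level was 4260, 4560 and 3370 CPM in LL37 skin and 2600, 4360 and 2910 with RAPA. Ms4a7 (ENSMUSG00000024672, chr19:11321039-11336146), a membrane protein of macrophages, stood at 63.6, 45.8 and 45.7 CPM in LL37 skin and 4.27, 7.12 and 6.58 with RAPA. LL37 replicate 3 stood beside replicate 2. The change was -3.11 ± 0.27, adjusted p = 0.000332. Control skin held 10.1, 6.1 and 13.1 CPM, and control skin with RAPA 3.04, 2.77 and 2.53 CPM, a difference of -1.81 ± 0.29, unadjusted p = 4.53e-05, adjusted p = 0.150. Fcgr4, an activating antibody receptor, stood at 32.1, 19.4 and 15.0 CPM in LL37 skin and 1.52, 2.87 and 4.24 with RAPA, a change of -2.94 ± 0.52, adjusted p = 0.00364, with -2.07 ± 0.59 in control skin, unadjusted p = 0.00457. Lyz1, a lysozyme gene, was raised, from 3.32, 10.5 and 4.71 to 31.7, 18.6 and 16.8 CPM, a change of 1.87 ± 0.38, adjusted p = 0.00618. In control skin 15 of the 34 macrophage genes were lower at an unadjusted p-value under 0.05 and 0 were higher.

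Lymphocyte genes were low in all groups. Of 29 T and NK cell genes tested, 7 were lowered DEGs and 0 raised, and the median was -0.86. The lowered DEGs numbered 4 without LL37+RAPA replicate 1 or 3. Cd3g, a chain of the T cell receptor complex, stood at 8.11, 7.97 and 8.48 CPM in LL37 skin and 3.8, 3.07 and 4.15 with RAPA. All RAPA libraries were also below control skin, 5.28, 7.54 and 6.85 CPM. The change was -1.16 ± 0.18, adjusted p = 0.00226, and -0.81 ± 0.18 in control skin, unadjusted p = 0.000923. Of 13 B cell genes 4 could be tested and 1 was a lowered DEG, as were 4.33% of all genes tested. Of 25 dendritic cell and MHC class II genes 3 were lowered DEGs, among them Ccr7, the lymph node homing receptor, at 13.7, 12.6 and 6.88 CPM against 1.38, 4.13 and 2.98 with RAPA, a change of -1.95 ± 0.44, adjusted p = 0.0103.

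Of 47 cell cycle genes tested, 31 passed the test as lowered and 0 as raised, 5 were DEGs, and the median was -0.76. The count of 31 was 33 without LL37 replicate 3 and 8 to 15 without any 1 of the others. In control skin 44 of the 47 had a change below 0, with a median of -0.34. Rrm2, a subunit of ribonucleotide reductase, stood at 59.7, 65.2 and 49.0 CPM in LL37 skin and 21.9, 27.9 and 25.7 with RAPA, a change of -1.20 ± 0.15, adjusted p = 0.00124. The RAPA level lay between LL37 skin and control skin, 13.9, 16.9 and 15.7 CPM. Bub1, a mitotic checkpoint kinase, stood at 8.98, 9.56 and 9.89 CPM against 3.8, 4.67 and 3.2 with RAPA, a change of -1.28 ± 0.20, adjusted p = 0.00205, with -1.08 ± 0.22 in control skin, unadjusted p = 0.000407.

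Of 35 ribosome biogenesis genes tested, 22 passed the test as lowered and 0 as raised, with 0 DEGs and a median of -0.47. LL37 replicate 3 stood at the RAPA level, the summed levels being 3610, 3800 and 2460 CPM in LL37 skin and 2410, 2530 and 2410 with RAPA. Without it 32 passed, but 1 passed without LL37 replicate 1, 4 without LL37 replicate 2 and 3 to 9 without 1 of the RAPA libraries. Utp20, a factor of small subunit assembly, stood at 62.1, 63.5 and 41.6 CPM against 34.8, 38.9 and 37.1 with RAPA, a change of -0.59 ± 0.14, adjusted p = 0.0112, and its call was lost without LL37 replicate 1 or LL37+RAPA replicate 1 and in the fit of the 6 libraries alone. Of 85 ribosomal protein genes tested, 5 passed the test as raised, 1 to 7 over the fits without 1 library, and 1 as lowered, with a median of 0.17 in both LL37 and control skin. Over all genes tested 12.4% passed as raised and 11.8% as lowered. Rps6, whose protein is a target of the mTORC1 branch kinase S6K, stood at 844, 972 and 802 CPM in LL37 skin and 1009, 974 and 970.1 with RAPA, a change of 0.17 ± 0.10, adjusted p = 0.234. Its RNA level says nothing of its phosphorylation. Eef2, an elongation factor, stood at 3436, 3370 and 3717 CPM and 4969, 5116 and 5043 with RAPA, a change of 0.52 ± 0.11, adjusted p = 0.00645, with 0.46 ± 0.11 in control skin, unadjusted p = 0.00106. The cap-binding factor Eif4e stood at 127, 115 and 93.6 CPM against 70.5, 79.1 and 71.6 with RAPA, a change of -0.60 ± 0.12, adjusted p = 0.00588. Among 21 translation factors 9 passed as lowered and 2 as raised, and those lowered were 13 without LL37 replicate 3 and 3 to 6 without any 1 of the others.

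Mtor, Rptor and Mlst8, which encode the core of mTORC1, were not called. Nor was Akt1s1, which encodes the subunit PRAS40. Mtor stood at 68.1, 58.5 and 62.5 CPM in LL37 skin and 70.5, 69.3 and 62.5 with RAPA, a change of 0.10 ± 0.09, adjusted p = 0.485. Rptor, the raptor subunit, stood at 59.0, 53.5 and 62.6 CPM against 59.3, 52.5 and 58.9 with RAPA, a change of -0.04 ± 0.10, adjusted p = 0.816. The interval of 2 SE on either side ran from -0.09 to 0.29 for Mtor and from -0.24 to 0.17 for Rptor. Deptor, an inhibitor that binds mTOR and that the study counts in mTORC1 too, passed the test at 0.69, adjusted p = 0.00414. It is named after its value was seen. Of the 44 genes of the pathway, 10 passed the test as raised and 2 as lowered, 6 to 13 and 1 to 4 over the fits without 1 library. The raised DEGs included Rragd, a GTPase that brings mTORC1 to the lysosome, at 1.03, 1.47 and 3.2 CPM in LL37 skin and 8.02, 6.96 and 8.84 with RAPA, a change of 2.03 ± 0.31, adjusted p = 0.00205. Control skin held 79.5, 57.4 and 83.2 CPM, and the muscle genes described further on had the same order of groups, whose part in this was not tested.

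Of 41 ATF4 target and amino acid genes tested, 7 were lowered DEGs and 2 raised, 16 passed the test as lowered and 4 as raised, and the median was -0.36. The lowered DEGs numbered 5 to 7 over the fits without 1 library. The letters TGATGNAA stood in 34.4% of the list's windows, 5.03% of the lowered DEGs, 2.37% of the raised DEGs and 2.90% of all tested genes. Among 28 genes of the unfolded protein response 8 passed as lowered and 2 as raised, and those lowered were 16 without LL37 replicate 3 and 1 without LL37 replicate 1 or LL37+RAPA replicate 1. Pdia3, a disulfide isomerase, changed by -0.53 ± 0.12, adjusted p = 0.0123, and its call was lost without LL37 replicate 1 or LL37+RAPA replicate 1. Herpud1, of protein degradation at the endoplasmic reticulum, changed by 0.55 ± 0.09, adjusted p = 0.00313. Of 42 proteasome genes tested 14 passed as lowered and 0 as raised, and of 85 genes of mitochondrial respiration 5 and 0. Without LL37 replicate 3 the lowered genes of these lists numbered 28 and 12, and without any 1 of the other libraries 3 to 5 and 1 to 3. Over all genes tested 11.8% passed as lowered, so the respiration genes were not lowered more often than genes at large. Their median was -0.08 in LL37 skin and -0.19 in control skin. In control skin 83 of the 85 were below 0 and 21 were lower at an unadjusted p-value under 0.05. Of 48 lysosome and autophagy genes 16 passed as lowered and 4 as raised, with 3 lowered DEGs, among them Ctsb, cathepsin B, at 2068, 1914 and 1951 CPM in LL37 skin and 801, 1131 and 988 with RAPA, a change of -1.02 ± 0.15, adjusted p = 0.00187. The lowered DEGs of that list numbered 0 without LL37 replicate 1 and 1 without LL37+RAPA replicate 1, and its raised genes past the test 0 or 1 without any library but LL37 replicate 3. Among all genes tested 4.33% were lowered DEGs. Of 28 cholesterol synthesis genes 5 passed as lowered and 0 as raised, with 1 to 5 lowered over the fits without 1 library. The sterol letters TCACNCCAC stood in 1.08% of the lowered DEGs, 1.96% of the raised DEGs and 1.49% of all tested genes, and the E-box CACGTG in 6.82%, 9.64% and 11.0%.

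The genes raised by RAPA were led by skeletal muscle. Mouse skin has a sheet of striated muscle, the panniculus carnosus, under the dermis, and a sample that reaches it holds muscle RNA. Of 59 listed genes, 56 passed the filter, 51 were raised DEGs and 0 lowered, and the median was 3.53. The count was 39 to 52 over the fits without 1 library. Mybpc2 (ENSMUSG00000038670, chr7:44501699-44524656), a myosin-binding protein of fast fibres, stood at 1.09, 1.29 and 16.3 CPM in LL37 skin and 192, 101 and 179 with RAPA, without overlap. Control skin was far higher at 1381, 881 and 1472 CPM, and so was control skin with RAPA at 2075, 1503 and 1573. The change was 4.63 ± 0.81, adjusted p = 0.00351, and 7.05 without LL37 replicate 3, the LL37 library with the most muscle RNA.

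The same order of groups held for other genes of the contractile apparatus and of muscle metabolism. Myoz1, a Z-disc protein, changed by 4.01 ± 0.56, adjusted p = 0.0016, and Art1, a muscle ADP-ribosyltransferase, by 4.31 ± 0.61, adjusted p = 0.00166, and by 7.99 without LL37 replicate 3. Rpl3l, the muscle form of a ribosomal protein, stood at 0.163, 0.368 and 1.13 CPM in LL37 skin and 14.4, 6.14 and 9.56 with RAPA, a change of 4.09 ± 0.48, adjusted p = 0.00102, and was the raised DEG among the ribosomal proteins. Des, desmin of muscle and mural cells, stood at 49.1, 115 and 194 CPM against 934, 588 and 792 with RAPA, a change of 2.69 ± 0.41, adjusted p = 0.0019. Of 20 genes of a muscle precursor list, 9 were raised DEGs and 0 lowered, 15 without LL37 replicate 3 and 3 to 5 without any 1 of the other libraries. That list includes Des and does not tell precursors from mature fibres. Its mean summed level was 227 CPM in LL37 skin, 993 with RAPA and 3160 in control skin, the order of the muscle list. In control skin RAPA left the median of the muscle list at 0.01, and 0 of its 56 members passed an unadjusted p-value of 0.05. With the listed muscle genes removed before scaling, 979 raised and 787 lowered DEGs were called.

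Fat cell genes were raised, and the summed level of their list passed that of control skin without RAPA. Of 29 adipocyte genes listed, 28 were tested, 22 were raised DEGs and 0 lowered, and the median was 1.86. The count was 20 to 22 over the fits without 1 library. The summed level of the list was 1980, 1530 and 2580 CPM in LL37 skin, 5780, 5820 and 5960 with RAPA and 3980 to 5650 in control skin. The LL37+RAPA libraries thus lay above every LL37 library and above every library of control skin without RAPA. Control skin with RAPA held 4590, 8100 and 5650 CPM, and the LL37+RAPA libraries lay within that range. Gpd1 (ENSMUSG00000023019, chr15:99717515-99725005), which makes the glycerol backbone of fat, stood at 67.5, 42.6 and 68.9 CPM in LL37 skin, 191, 210.3 and 177 with RAPA and 181, 133 and 168 in control skin, a change of 1.69 ± 0.18, adjusted p = 0.000932. Adig, adipogenin, stood at 9.69, 6.62 and 8.71 CPM against 23.2, 20.8 and 20.1 with RAPA, a change of 1.35 ± 0.13, adjusted p = 0.000717. Slc2a4, the insulin-responsive glucose transporter of fat and muscle, stood at 2.78, 5.58 and 7.39 CPM, 25.2, 24.0 and 25.6 with RAPA and 112, 86.2 and 106 in control skin, a change of 2.24 ± 0.25, adjusted p = 0.00101. Its RAPA level was still below control skin, which also held far more muscle RNA, and the part of that was not tested.

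Oil gland and fat synthesis genes were raised as well. Of 15 sebaceous gland genes tested 5 were raised DEGs, 0 were lowered and the median was 0.68, with 3 to 6 raised over the fits without 1 library. Pparg, the nuclear receptor that drives fat and sebaceous cells, stood at 18.2, 11.9 and 17.5 CPM in LL37 skin and 47.7, 44.5 and 42.6 with RAPA, above control skin at 26.8, 30.4 and 23.3, a change of 1.5 ± 0.19, adjusted p = 0.00129. Acsbg1, a fatty acid activating enzyme, stood at 307, 192 and 398 CPM against 655, 601 and 794 with RAPA, a change of 1.19 ± 0.24, adjusted p = 0.00595. Of 24 lipogenesis genes 10 passed as raised, 5 to 10 over the fits without 1 library, and 1 as lowered.

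**Figure D3:**
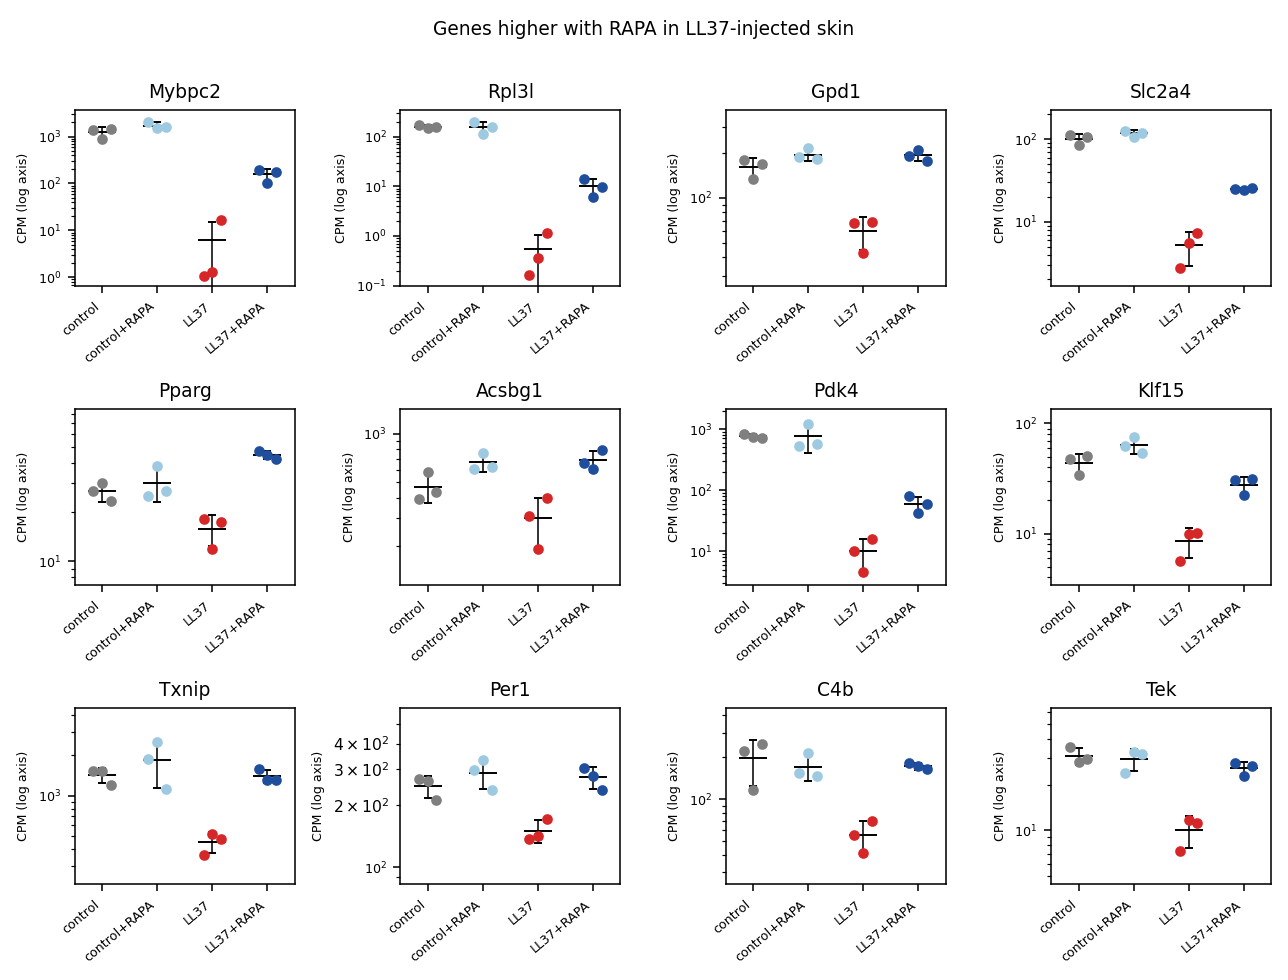
CPM on a log axis of 12 genes higher with RAPA, 1 point a library, with group means and SD as bars, in the 4 groups. In each panel the 3 LL37+RAPA libraries lie above the 3 LL37 libraries, while for Mybpc2, Rpl3l, Slc2a4, Pdk4, Klf15 and Tek they stay below every control library.

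Genes that insulin signalling holds down were higher with RAPA. FOXO transcription factors, which AKT keeps out of the nucleus, and glucocorticoids raise such genes in fasting. Of 25 tested, 17 passed the test as raised and 0 as lowered, 9 were DEGs and the median was 0.81, with 7 to 10 raised DEGs over the fits without 1 library. Pdk4 (ENSMUSG00000019577, chr6:5483351-5496309), which turns pyruvate away from oxidation, stood at 10.3, 4.66 and 15.6 CPM in LL37 skin and 78.8, 42.3 and 60.3 with RAPA, a change of 2.56 ± 0.42, adjusted p = 0.00263, but control skin held 841, 733 and 713. Klf15, a glucocorticoid-induced factor of muscle and fat, stood at 5.66, 9.93 and 10.2 CPM against 30.4, 22.3 and 31.0 with RAPA, a change of 1.70 ± 0.24, adjusted p = 0.00166. Txnip, which limits glucose uptake, stood at 363, 520.2 and 476 CPM in LL37 skin, 1586, 1304 and 1318 with RAPA and 1538, 1517 and 1205 in control skin, a change of 1.63 ± 0.25, adjusted p = 0.0021. The RAPA and control libraries overlapped for Txnip and the LL37 libraries were apart. Muscle and fat express Pdk4, Klf15 and Txnip too, and the part of those tissues was not tested. Clock genes moved along, with 8 of 19 passing as raised and 1 as lowered. Per1, a repressor of the clock, stood at 138, 141 and 172 CPM in LL37 skin and 305, 279 and 238 with RAPA, a change of 0.86 ± 0.15, adjusted p = 0.00339, and Bhlhe40, another repressor, fell from 198, 161 and 77.1 to 47.7, 68.8 and 39.0 CPM, a change of -1.49 ± 0.31, adjusted p = 0.00723. The sources used here give no hour of sampling. The raised clock DEGs numbered 2 of 19, while 5.80% of all genes tested were raised DEGs. They numbered 9 without LL37 replicate 3 and 1 without LL37 replicate 1, LL37+RAPA replicate 1 or LL37+RAPA replicate 3.

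Among cell type genes of the dermis, of 23 fibroblast genes 7 passed as raised and 0 as lowered, of 20 endothelial genes 8 and 0, of 13 mural cell genes 6 and 0, of 14 nerve and glia genes 7 and 0, and of 7 melanocyte genes tested 3 and 0. Over all genes tested 12.4% passed as raised and 11.8% as lowered. Single libraries decided much of the counts per list. Without LL37 replicate 1 the raised fibroblast genes numbered 1, without LL37 replicate 2 they numbered 2, and without a RAPA library 3 or 4. Without LL37 replicate 3 they numbered 10, with 2 lowered fibroblast genes and 1 lowered mural cell gene. The raised endothelial genes numbered 5 to 10 over the fits without 1 library, those of mural cells 5 or 6 and those of nerve and glia 4 to 9. The mural cell list holds Des, which muscle expresses too, and its summed level had the order of groups of the muscle genes. The mean of that sum was 738 CPM in LL37 skin, 1520 with RAPA and 3650 in control skin, and the part of muscle was not tested. The raised melanocyte genes numbered 0 without LL37 replicate 1, LL37 replicate 2 or LL37+RAPA replicate 1. Mfap5, a protein of elastic fibres, stood at 15.2, 13.0 and 26.5 CPM in LL37 skin and 83.1, 54.7 and 47.4 with RAPA, a change of 1.75 ± 0.30, adjusted p = 0.00307. Tek, the angiopoietin receptor TIE2, stood at 7.35, 11.7 and 11.2 CPM against 27.9, 23.0 and 26.6 with RAPA, a change of 1.36 ± 0.19, adjusted p = 0.00156. Sox10, the Schwann cell factor, stood at 18.2, 22.2 and 18.4 CPM against 28.2, 33.8 and 31.6 with RAPA, a change of 0.67 ± 0.11, adjusted p = 0.00264. Of 20 genes of vessel activation 6 were lowered DEGs, Vegfa and Nos2 among them, and 2 were raised, with 4 to 7 lowered over the fits without 1 library. Of 20 complement genes 2 were raised DEGs, 1 to 3 over the fits without 1 library, and 1 was lowered. C4b, complement C4 with the close copy C4a, stood at 55.2, 40.9 and 70.2 CPM in LL37 skin, 182, 172 and 163 with RAPA and 222, 115 and 250.3 in control skin, a change of 1.63 ± 0.27, adjusted p = 0.00283. Of 29 inflammasome and prostanoid genes 6 were lowered DEGs and 0 raised, and 3 were lowered without LL37 replicate 1. Of 28 NRF2 and metallothionein genes 5 were lowered and 2 raised, with 7 lowered without LL37 replicate 3 and 2 or 3 without any 1 of the others. Gsta3, a glutathione transferase, stood at 3.75, 3.0 and 4.14 CPM against 17.7, 13.6 and 12.1 with RAPA, a change of 1.99 ± 0.25, adjusted p = 0.00129. Of 81 hair shaft genes 15 could be tested, and 1 was a raised and 1 a lowered DEG. Among all genes tested 5.80% were raised and 4.33% lowered DEGs. Counts of 1 or 2 DEGs therefore do not set lists of this size apart from genes at large.

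**Figure D4:**
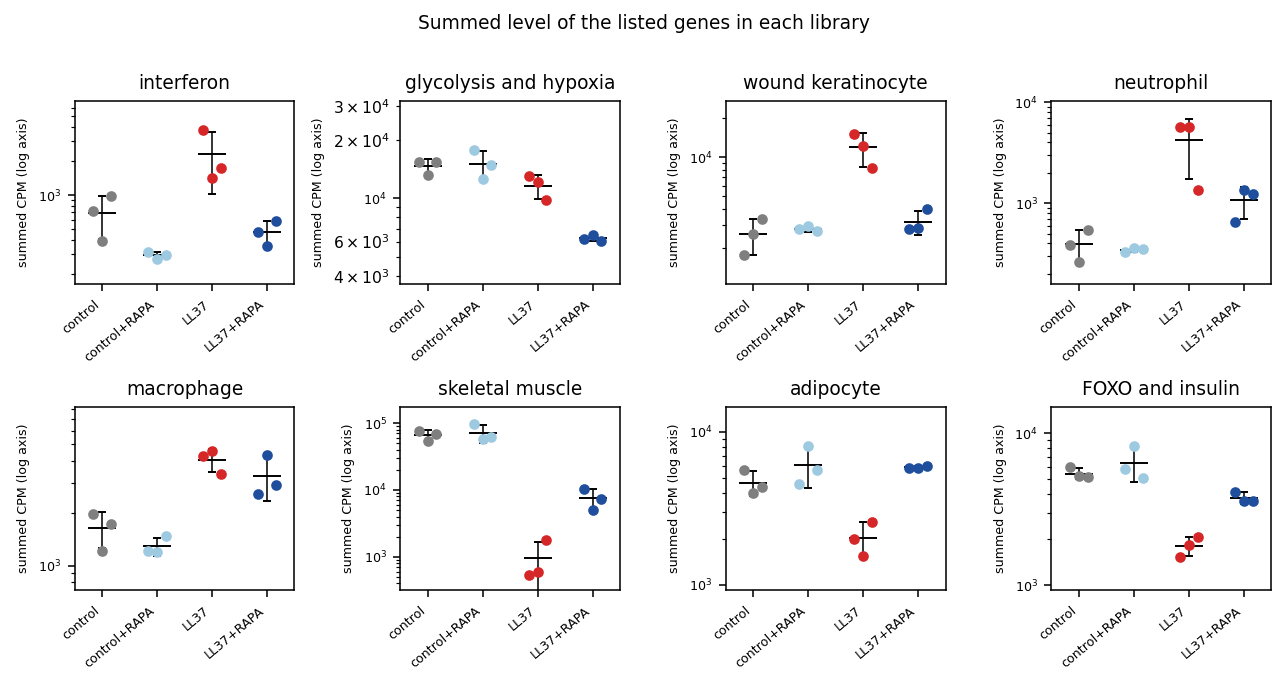
Summed CPM on a log axis of the listed genes of 8 lists in each of the 12 libraries, with group means and SD as bars. LL37+RAPA libraries lie below all LL37 libraries for the interferon, glycolysis and hypoxia, wound keratinocyte and (by a small margin, 1340 against 1360 CPM) neutrophil lists, overlap them for macrophages, and lie above them for muscle, adipocyte and FOXO and insulin genes.

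Compared with control skin, RAPA did not bring all genes to one level. Of the 1044 raised DEGs, the mean of the RAPA libraries lay below the range of the control libraries in 509, within it in 282 and above it in 253. Of the 779 lowered DEGs it lay above that range in 295, within it in 342 and below it in 142. Control mice were not given LL37 and these are counts of position with no test.

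In control skin RAPA itself gave 0 DEGs by edgeR, with 1556 genes at an unadjusted p-value under 0.05, a smallest adjusted p of 0.150 over all genes, and 52 DEGs by DESeq2. Of the lowered DEGs of LL37 skin, 600 (77.0%) had a change below 0 in control skin too, where 51.0% of all genes tested did, and 180 also had an unadjusted p-value under 0.05. Of the raised DEGs 626 (60.0%) had a change above 0 and 58 such a p-value. Among all genes tested, 4.57% were lower and 4.08% higher in control skin at that p-value. The libraries of the 2 comparisons are separate. The median change in control skin was -0.40 for the lowered DEGs and 0.09 for the raised ones.

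**Figure D5:**
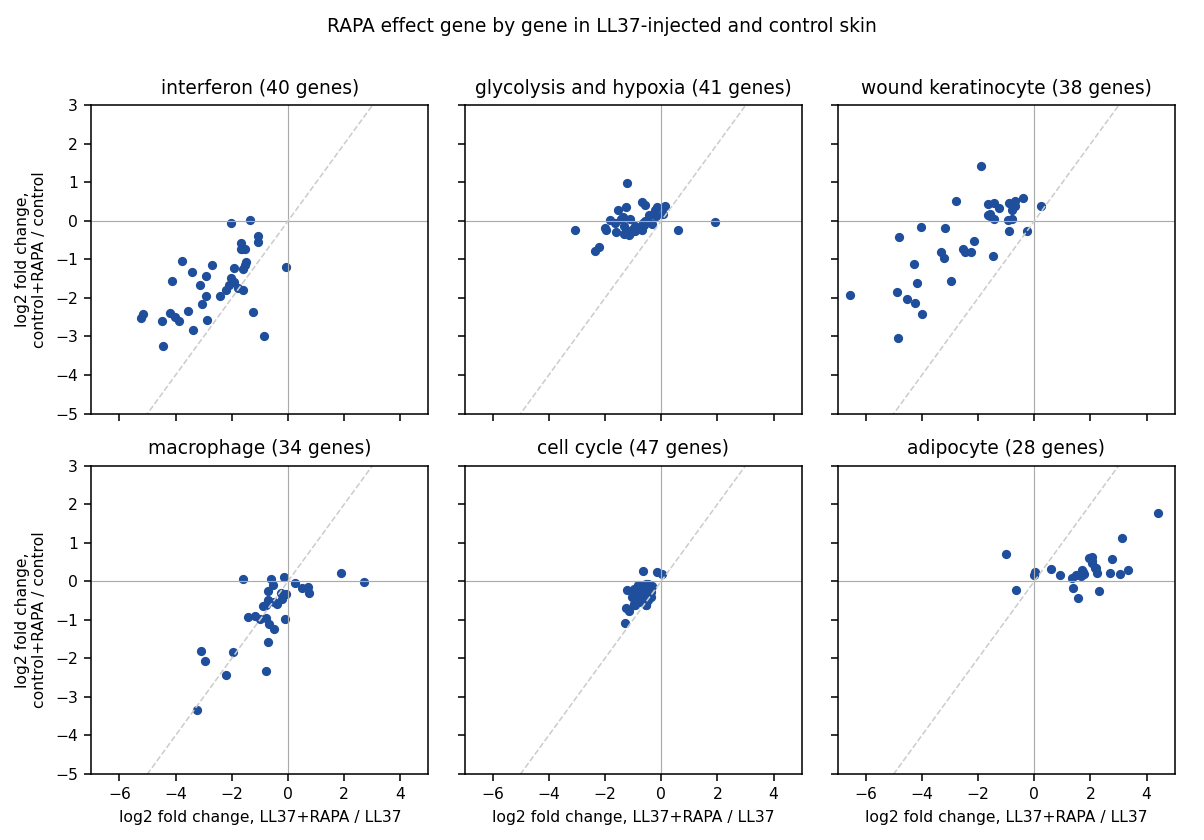
Each point is 1 tested gene of a list, with its log2 fold change by RAPA in LL37-injected skin (x axis) and in control skin (y axis), the dashed line marking equal change. Interferon and macrophage genes lie mostly below 0 on both axes, while hypoxia genes spread along the x axis near 0 in control skin, where 1 of 41 had an unadjusted p-value under 0.05 as lower and 5 as higher.

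Some of the most changed genes belong to none of the lists. Tdgf1, a co-receptor of the NODAL pathway known as Cripto, stood at 33.3, 24.9 and 0.754 CPM in LL37 skin and 0, 0.0819 and 0.225 with RAPA, a change of -7.48 ± 1.26, adjusted p = 0.00294. LL37 replicate 3 had almost none of it. Mup16, a major urinary protein gene of a family with near-identical copies, stood at 0, 0.123 and 0.188 CPM and 12.8, 2.83 and 1.8 with RAPA, a change of 5.68 ± 1.08, adjusted p = 0.00487, and reads may be shared among the copies. Kcnc1, a voltage-gated potassium channel, stood at 0, 0.245 and 0.0942 CPM and 3.13, 1.92 and 1.67 with RAPA, a change of 4.30 ± 0.58, adjusted p = 0.00152, with control skin at 88.7, 52.3 and 70.4. This was the order of groups of the muscle genes, whose part was not tested. The LL37 libraries held 0, 4 and 2 counts of Kcnc1. In LL37 skin both Mup16 and Kcnc1 were near the floor of 3 counts, so the size of their changes is uncertain. Tceal7, on the X chromosome, held at most 3 counts in each LL37 library and stood at 2.09, 0.328 and 1.17 CPM with RAPA, at least 7.35-fold higher.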

How the data were processed

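Total RNA of BALB/c mouse skin was extracted with Trizol and sequenced (TruSeq RNA kit, HiSeq X) in 12 libraries, 3 in each of 4 groups, grouped here by their labels. The authors deposited whole-number read counts per Ensembl gene for 52636 genes, not normalised. Per the labels, the submitters' processing notes name HISAT2 2.0.5, StringTie 1.3.3b, featureCounts 1.5.0-p3 and build mm10, while the study's methods name HTSeq. Which of them made the table, and whether strand was used, is not given in the sources used here. Without strand, reads of overlapping genes cannot be told apart.

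Counts were fitted with edgeR 4.0.16 in R 4.3.3 (TMM scaling, filterByExpr by group, quasi-likelihood test), all 4 groups in 1 fit without a replicate block, and the contrasts were LL37+RAPA against LL37, control+RAPA against control and their difference. Same-numbered LL37 and LL37+RAPA libraries had deviations correlated at -0.188, 0.207 and 0.021, so the numbers were not taken to pair the mice. The p-values measure the spread between samples of a group, estimated over all 4 groups in 1 fit. The study calls the 3 samples of each group independent biological samples. Gene names and coordinates came from GENCODE M21 (GRCm38), and promoter windows from RefSeq (GRCm38.p6). Depth was 15734559 to 23271784 counts a library, and 3 counts, the floor used for bounds, were 0.123 to 0.184 CPM.

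The text names, per direction, protein-coding DEGs among the 12 with the largest change less 2 standard errors whose libraries did not overlap, up to 3 genes of each of 43 lists by smallest p, and 10 genes of the study's question. A gene that the rule names is not reported here. The comparison, the lists and this rule were chosen with earlier results of these data known. The alternatives were DESeq2 1.42.0 (also its size factors in edgeR), total counts, removal of the muscle list, 2 other count filters, the compared groups alone, a replicate block, leaving out each of the 6 libraries, and an unadjusted p. A fit without 1 library repeated the filter, so its list counts can include listed genes that the main fit did not test.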

Additional observations from a re-analysis of the deposited data

Results flagged for a closer look

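By edgeR's test of the difference between both contrasts, 590 genes responded to RAPA unequally in skin with and without LL37, 387 with a more positive and 203 with a more negative effect in LL37-injected skin. This count rested on single libraries: it was 2 without LL37+RAPA replicate 1, 132 without LL37+RAPA replicate 3, 301 without LL37+RAPA replicate 2, 108 without LL37 replicate 1, 355 without LL37 replicate 2 and 3145 without LL37 replicate 3. The genes named here are those of the report with an adjusted p-value under 0.05 for the difference, on the log2 scale.

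Among genes of hypoxia, vessels and the epidermis the effect was more negative in LL37-injected skin, by -1.57 for Car9, -1.86 for Egln3, -1.73 for Ero1l, -1.81 for Vegfa, -4.40 for Has3, -1.26 for Hrnr and -1.47 for Il1f9, and for Mmp10 it was -5.10 as fitted. It was so too for the mediator genes Inhba (-2.54) and Ptgs2 (-3.89) and for Rrm2 (-0.98). Among fat cell and metabolic genes it was more positive, by 1.26 for Adig, 1.41 for Gpd1, 1.33 for Pparg, 2.02 for Slc2a4, 2.55 for Pdk4, 1.87 for Gsta3 and 2.19 for Rragd. Among muscle genes the difference was 4.16 for Art1, 3.73 for Myoz1, 4.12 for Rpl3l and 2.38 for Des. Among dermal and other genes it was 1.83 for C4b, 1.93 for Mfap5, 1.43 for Tek, 4.68 for Kcnc1, 7.25 for Mup16 and 5.82 for Tceal7. Tceal7 held at most 3 counts in each LL37 library and Mmp10 in each LL37+RAPA library, so the differences of both depend on the prior count of the fit and are no bounds. Kcnc1 and Mup16 were near that floor in LL37 skin, so the size of their differences is uncertain too.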

How the results depend on the processing

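Leaving out 1 library gave 657 to 1634 raised and 447 to 1093 lowered DEGs, 1193 to 3208 raised and 896 to 3200 lowered genes past the adjusted p, and 2 to 3145 genes for the difference of the RAPA effects. Leaving out LL37 replicate 3 gave the highest value each time. DEGs of control+RAPA against control stayed at 0. The 6 libraries alone gave 649 raised DEGs, and 1266 raised and 1197 lowered genes past the adjusted p. A minimum of 10 counts in every library gave 514 lowered DEGs. With an unadjusted p, 3462 raised and 3376 lowered genes passed, 332 DEGs appeared in control skin and 4049 genes for the difference. With no filter but 1 count there were 8 control DEGs and 1061 genes for the difference, and by DESeq2 52 and 1745. The replicate block gave 230 genes for the difference, and 1021 raised and 682 lowered DEGs. The other counts of genes stayed within 1.5 times. The cause of these shifts was not tested, apart from fewer samples or genes where the setting itself removes them.

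Of 1013 refitted values of named genes, 988 kept direction and side of the threshold, 13 lost it and 12 changed sign, all in genes not called: Klk5 (-0.51 to 0.08 over the fits without 1 library), Rptor (0.00 with total counts, -0.10 to 0.02 over those fits) and Mmp9 (0.04 with total counts, 0.02 with no filter, 0.01 with 10 counts in every library, 0.01 in the compared groups alone, 0.04 with the block, -0.43 to 0.79 over those fits). Counts per list moved past 1.5 times in 119 of 602 refits. Genes under 3 counts a library allow bounds only.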

Other observations

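Among the 6 control-side libraries, which were in the fit but not in the compared groups, the summed muscle list differed by up to 78.6% between libraries. On the log2(CPM + 0.5) scale, 51 of the 1044 raised DEGs (4.89%) followed that sum with a Pearson correlation above 0.9 over the 6 libraries, as did 0.811% of all genes tested and 0.128% of the lowered DEGs, and 18 of the 56 tested muscle genes themselves (32.1%). For the summed adipocyte list, which differed by up to 104%, the shares were 8.52%, 2.08% and 0.257%, and 25.0% (7 of 28) among its own tested members. The raised DEGs include 51 genes of the muscle list and 22 of the adipocyte list, which are themselves terms of these sums. Their part in the shares of the raised DEGs was not taken out. The 6 libraries share depth and treatment groups, and the shares are descriptions with no test, chosen after the data were seen.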
